A study of Mus musculus with 4 samples.

Results

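Imprinted genes are read mainly from the copy inherited from 1 parent, the other copy being held silent by DNA methylation and associated chromatin set in the germline. Many of them control growth before birth, with paternally expressed genes tending to promote growth and maternally expressed genes tending to restrain it, and several sit in clusters that share a control region. In fibroblasts from mouse embryos a number of these genes are expressed strongly. The 10 imprinted growth genes described here are H19, Meg3, Cdkn1c and Grb10, which are mainly maternally expressed in embryonic tissue, and Dlk1, Peg3, Mest, Plagl1, Ndn and Peg10, which are paternally expressed. They were chosen by name and taken by the gene name printed for each array feature, Meg3 being written under its older name Gtl2. They account for 10 of the 27962 gene names on the array and for 21 of its 41174 probes.

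The study compared mouse embryo fibroblasts (MEFs) that lack stathmin (STMN1-/-) with wild-type MEFs (STMN1+/+), to find which transcripts differ when this microtubule-destabilizing protein is absent. Both genotypes were C57BL/6 and came from matings of heterozygous mice, with cells of each mid-gestation embryo plated separately and grown in serum-containing medium, and the mutant allele carries a neomycin cassette in the STMN1 gene. Each of 4 Agilent 2-color arrays received RNA of both genotypes. The STMN1-/- RNA was labeled with Cy3 for replicates 1 and 2, and for replicates 3 and 4 the dyes were swapped so that it carried Cy5. The labels do not say how many embryos or RNA extracts stand behind the 4 arrays, and the p-values therefore reflect only how far these arrays differ among themselves, which may be technical. The arrays measure total RNA of a gene and do not separate its parental copies. Fewer cells of a type and less RNA per cell cannot be told apart in such samples.

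Each value below is a processed signal, that is a background-corrected and dye-normalized intensity, or the log2 ratio of the STMN1-/- over the STMN1+/+ signal on the same array, so that a positive ratio is higher in the STMN1-/- cells. A ratio was called higher or lower where the limma test against 0 gave an adjusted p under 0.05, the adjustment running over all 27648 tested probes. Standard errors (SE) are those of limma over the arrays with a value, and a gene is represented by its brightest probe unless a probe is named.

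Of the 41174 probes, between 24808 and 26029 were well above background per array and genotype. The 2 probes for Stmn1 were lower in the STMN1-/- channel on 4 of 4 arrays, with log2 ratios of -2.16 (SE 0.06) for A_52_P319161 and -0.39 (SE 0.07) for the brighter A_51_P495641 and limma adjusted p of 0.000602 and 0.0181. The paper calls the array's STMN1 probe flawed, since its sequence also matches another chromosome, and does not say which of the 2 is meant. By qRT-PCR and western blotting it reports neither STMN1 mRNA nor protein in STMN1-/- MEFs. Fibroblast markers were present, and 8 of 10 were called higher in the STMN1-/- cells and 1, Vim, lower. The summed signal of that list lay between 4131930 and 6533710 in STMN1-/- and between 3800110 and 4428240 in STMN1+/+ cells. Of 5 epithelial markers Epcam was dim on all arrays, and the other 4 were lower, among them Cdh1. Cdh1 was not well above background in the STMN1-/- cells, where its mean signal was 42.0 against 447. Its mean difference was at least 10.6-fold, taken from the dim signals themselves, and single arrays gave 9.56 to 11.4 fold. The summed epithelial signal was 44875 to 51883 in STMN1-/- and 56313 to 64120 in STMN1+/+ cells. Of the muscle markers 2 were higher and 1 was lower of 6 tested, of the endothelial markers 1 and 1 of 3, and of the macrophage markers 1 and 1 of 4, with Myf5, Pecam1, Cdh5 and Itgam dim throughout. Among sex-linked genes, Xist was called higher by its brightest probe (0.30, SE 0.07), while its other probes gave 0.17 to 0.37 and were not called. Ddx3y, Eif2s3y, Kdm5d and Uty were not well above background in either genotype. Among all genes tested by their brightest probe, 12.3% were called higher and 11.6% lower. The part of these markers in the results below was not tested.

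Meg3 and H19 make long RNAs that are not translated, and their 60-base probes are shown by sequence because each RNA was read at several sites. All 5 Meg3 probes were called higher in the STMN1-/- cells and neither H19 probe was called, a difference between these genes that was not tested. The probes are given 5′ to 3′ as deposited with the arrays, with positions on mouse build mm7, which is the build of all positions given here. Exon and UTR annotation of that build was not used here. The 5 Meg3 probes lie on the plus strand of chromosome 12 at chr12:107070994-107079479 (A_52_P391505, whose bases are split across an intron), chr12:107080192-107080251 (A_52_P99341), chr12:107082578-107082637 (A_52_P196568), chr12:107083918-107083977 (A_51_P109649) and chr12:107092697-107092756 (A_51_P455997). The 2 H19 probes lie on the minus strand of chromosome 7 at chr7:139003144-139003203 (A_51_P142196) and chr7:139003393-139003540 (A_52_P571350, also split across an intron).
Meg3 A_52_P391505: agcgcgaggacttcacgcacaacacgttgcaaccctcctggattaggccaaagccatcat
Meg3 A_52_P99341: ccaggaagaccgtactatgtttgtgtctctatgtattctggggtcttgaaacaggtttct
Meg3 A_52_P196568: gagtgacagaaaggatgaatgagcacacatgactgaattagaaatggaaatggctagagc
Meg3 A_51_P109649: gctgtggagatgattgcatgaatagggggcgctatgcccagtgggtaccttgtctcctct
Meg3 A_51_P455997: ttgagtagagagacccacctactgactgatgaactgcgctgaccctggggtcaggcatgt
H19 A_51_P142196: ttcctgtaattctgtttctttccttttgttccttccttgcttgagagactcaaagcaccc
H19 A_52_P571350: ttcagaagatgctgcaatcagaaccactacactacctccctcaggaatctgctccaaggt

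Of the 10 genes, 5 were called higher in the STMN1-/- cells (Cdkn1c, Meg3, Peg3, Mest and Dlk1), 1 was called lower (Peg10) and 4 were not called (H19, Grb10, Ndn and Plagl1). Across all 18761 genes tested by their brightest probe, 12.3% were called higher and 11.6% lower. By probe, 11 of the 21 were higher and 1 was lower, beside 11.2% higher and 11.2% lower among all tested probes. The median log2 ratio of the 10 genes was 0.22 and that of all genes was 0.0027. None of the 10 reached a 2-fold mean difference, which 3.25% of all genes did. The 4 array signals of the STMN1-/- cells lay outside the range of the 4 STMN1+/+ signals for 4 of the 10, namely Cdkn1c, Meg3, Peg3 and Mest, while 24.6% of all genes had ranges that did not overlap. Every gene but Peg10 was well above background in both genotypes on all arrays. Peg10 passed the background filter through STMN1+/+ cells alone. With 1 array left out, 2 to 3 of the 10 genes were called higher and 0 to 1 lower. The calls for Mest and Dlk1 were then lost whichever array it was, that of the brightest Meg3 probe without replicate 1, 2 or 4 and that of Peg10 without replicate 4. With dim probes kept in the fit 3 were called higher.

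**Figure D1:**
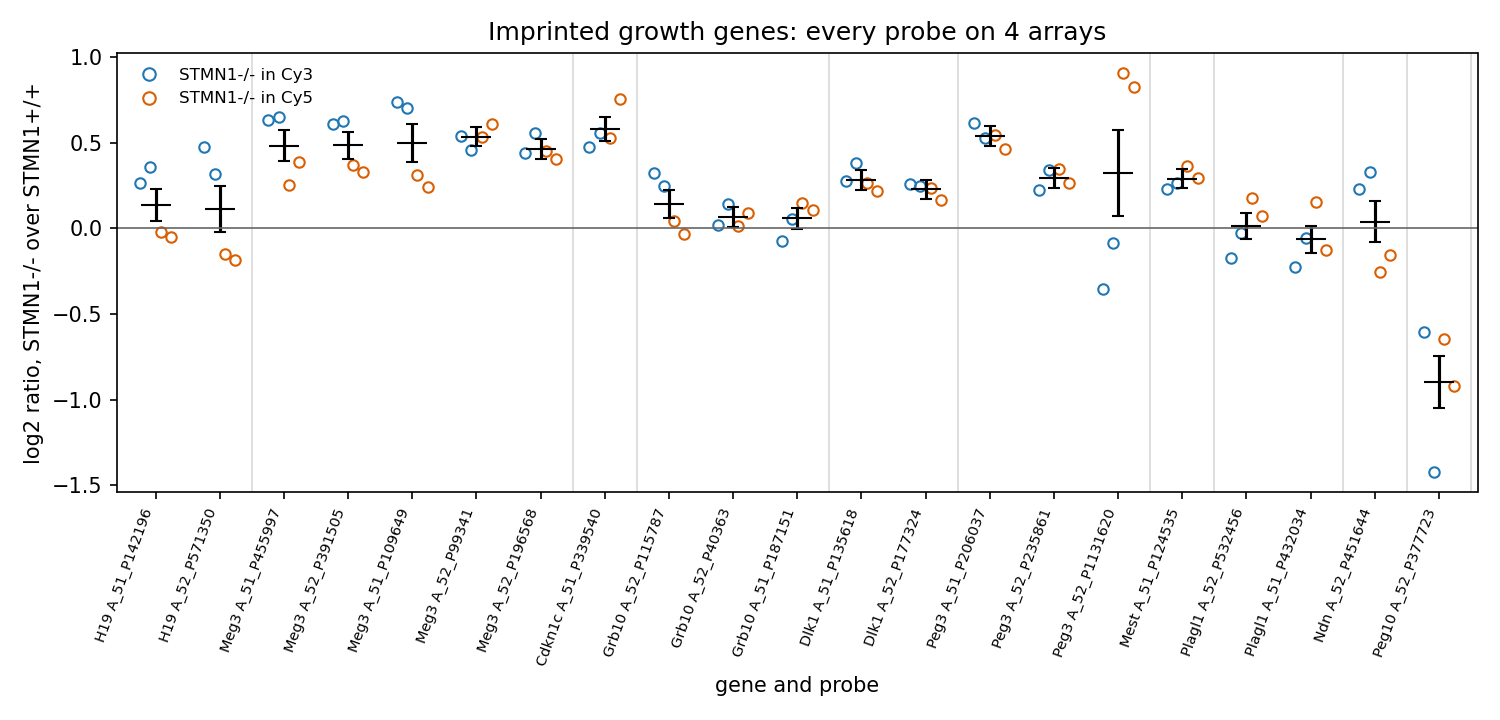
Log2 ratio of the STMN1-/- over the STMN1+/+ signal (vertical axis) for each of the 21 probes (horizontal axis), with open circles for the 4 arrays colored by the dye of the STMN1-/- RNA and a black bar with whiskers for the mean and its SE. The 5 Meg3 probes average between 0.46 and 0.54, and Peg10 lies below 0 on 4 of 4 arrays. The circles of H19, Ndn, Plagl1 probe A_52_P532456 and Peg3 probe A_52_P1131620 lie on opposite sides of 0 by dye. Those of Meg3 probes A_51_P455997, A_52_P391505 and A_51_P109649 and, more narrowly, of Mest and Dlk1 separate by dye without crossing 0. Those of Grb10 probes A_52_P115787 and A_51_P187151 separate by dye as well.

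Among the maternally expressed genes, Cdkn1c, which encodes the cyclin-dependent kinase inhibitor p57Kip2 and slows the cell cycle, was higher in the STMN1-/- cells on every array. Its single probe, A_51_P339540 at chr7:139886128-139886187 on the minus strand, gave STMN1-/- signals of 20939.7, 23386, 21220.4 and 27191 on replicates 1 to 4. The STMN1+/+ signals on the same arrays were 15031, 15890.2, 14701 and 16113. The lowest STMN1-/- signal was thus above the highest STMN1+/+ signal. The mean difference was 1.49 fold (log2 ratio 0.58, SE 0.07, n = 4, limma adjusted p = 0.00652). It stayed past the threshold with any array left out, at 0.52 to 0.61 and adjusted p of 0.0265 to 0.0355.

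Meg3, the noncoding RNA transcribed from the maternal copy of the Dlk1-Meg3 cluster, was higher by all 5 of its probes. The brightest, A_51_P455997, had STMN1-/- signals of 147278, 161371, 131544 and 158604 on replicates 1 to 4, against 94962, 102534, 110077 and 120947 in STMN1+/+ cells. The ranges did not overlap, and the ratio was larger where STMN1-/- RNA carried Cy3, at 0.63 and 0.65, than where it carried Cy5, at 0.26 and 0.39. Its mean log2 ratio was 0.48 (SE 0.09, limma adjusted p = 0.0208). Probe A_52_P99341, for which the orientations averaged 0.50 and 0.57, gave STMN1-/- signals of 7782, 7897, 8009 and 9267 and STMN1+/+ signals of 5359, 5734, 5530.2 and 6059. These also did not overlap, and the mean log2 ratio was 0.54 (SE 0.06, limma adjusted p = 0.00468). The splice-crossing probe A_52_P391505 was higher by 0.49 (SE 0.08), A_51_P109649 by 0.50 (SE 0.11) and A_52_P196568 by 0.46 (SE 0.06), with limma adjusted p of 0.0147, 0.0338 and 0.00706. All 5 were higher on 4 of 4 arrays. With STMN1-/- RNA in Cy3 and in Cy5 respectively, A_52_P391505 averaged 0.62 and 0.35, and A_51_P109649 averaged 0.72 and 0.28, the latter difference being at least as large as that of 79.6% of probes. Within an array, the other 4 probes differed from the brightest by a mean of -0.02 to 0.05, with exact sign-flip p of 0.75 to 1.

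The calls of A_52_P99341 and A_52_P196568 held with any array left out, at adjusted p of 0.0255 to 0.0387. That of the brightest Meg3 probe did not hold without replicates 1, 2 or 4 (0.0750, 0.0783 and 0.0654), that of A_52_P391505 without replicates 1 or 2 (0.0578 and 0.0621), and that of A_51_P109649 with any of the 4 left out (0.0562 to 0.112). By normexp and loess A_52_P196568 gave 0.24 (adjusted p = 0.0748) and A_51_P109649 0.38 (adjusted p = 0.104), neither past the threshold, and with dim probes kept in the fit A_51_P109649 had an adjusted p of 0.0689. By the methods' t-test, run with the probe filter used here, 3 of the 5 did not pass, namely the brightest probe (0.0757), A_52_P391505 (0.0552) and A_51_P109649 (0.113). The log2 ratios themselves stayed between 0.42 and 0.59 over all leave-one-out fits of the 5 probes.

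H19, the noncoding RNA made from the maternal copy beside Igf2, did not pass the test with either probe. Probe A_51_P142196 gave 129739, 145051, 119845 and 131685 in STMN1-/- cells and 108000, 113018, 121756 and 136185 in STMN1+/+ cells. The genotypes overlapped, with STMN1-/- above STMN1+/+ on replicates 1 and 2 and below it on replicates 3 and 4. The mean log2 ratio was 0.14 (SE 0.09, 95% interval -0.10 to 0.38, limma adjusted p = 0.346). The splice-crossing probe A_52_P571350 averaged 0.11 (SE 0.14, interval -0.24 to 0.46), with 0.40 where STMN1-/- RNA was in Cy3 and -0.17 where it was in Cy5. Over the 26607 tested probes with a value on every array, the median size of this difference between orientations was 0.22, and 86.9% of probes had one no larger than that of A_52_P571350.

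Grb10 encodes an adaptor that binds insulin and insulin-like growth factor receptors and restrains growth. Its brightest probe, A_52_P115787, had STMN1-/- signals of 136875, 153430, 114660 and 131179 and STMN1+/+ signals of 109424, 129081, 111346 and 134381. The ranges overlapped and 3 of 4 arrays were higher in STMN1-/-, with a mean log2 ratio of 0.14 (SE 0.08, 95% interval -0.07 to 0.36). The other 2 probes, A_52_P40363 and A_51_P187151, averaged 0.07 (interval -0.08 to 0.21) and 0.06 (interval -0.10 to 0.22). None of the 3 was called.

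**Figure D2:**
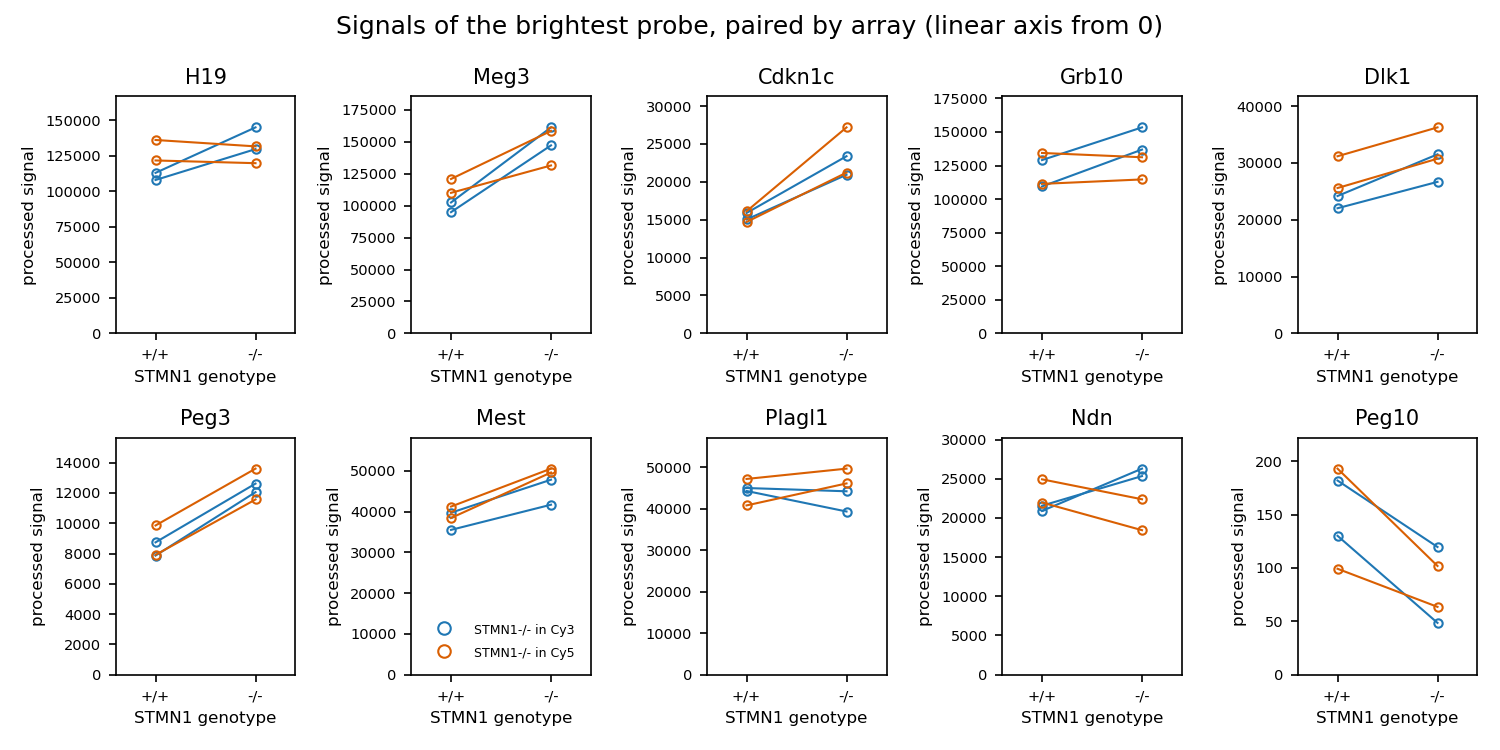
Processed signal (vertical axes, linear and starting at 0, a different scale for each gene) of the brightest probe of each of the 10 genes in STMN1+/+ and STMN1-/- cells, with a line joining the genotypes of each of the 4 arrays, colored by the dye of the STMN1-/- RNA. All 4 lines rise for Cdkn1c, Meg3, Dlk1, Peg3 and Mest, all 4 fall for Peg10, and the lines of H19, Ndn and Plagl1 rise or fall by dye.

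Of the paternally expressed genes, Peg3, which encodes a large zinc finger protein, had the largest called rise. Its brightest probe, A_51_P206037 at chr7:6266913-6266972, gave STMN1-/- signals of 12055, 12619, 11571 and 13609, against 7863, 8738, 7909 and 9854 in STMN1+/+ cells. The groups did not overlap, and the mean difference was 1.45 fold (log2 ratio 0.54, SE 0.06, limma adjusted p = 0.00462). Probe A_52_P235861 rose less, by 0.29 (SE 0.06, limma adjusted p = 0.0224). On each array the latter lay below the former, by a mean of -0.25 (range -0.39 to -0.19), which gives the smallest exact p that 4 arrays allow (0.125 raw, 0.357 adjusted over the 20 pairs of probes or neighbouring genes compared). The third probe, A_52_P1131620, had a low signal, with STMN1-/- signals of 212, 216, 286 and 324 and STMN1+/+ signals of 270.1, 229, 152 and 183. Here the direction followed the dye, being lower in STMN1-/- on replicates 1 and 2 and higher on replicates 3 and 4, and the mean of 0.32 (SE 0.25) was not called. Its difference between orientations was at least as large as that of 97.6% of probes. With any 1 array left out the call of A_51_P206037 held (limma adjusted p 0.0253 to 0.0302), and that of A_52_P235861 did not (0.0630 to 0.0936).

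Mest, which encodes a protein of the α/β-hydrolase fold family, rose by 1.22 fold. Its probe A_51_P124535 at chr6:30680425-30680484 gave 41665, 47798, 49567 and 50512 in STMN1-/- cells and 35490.5, 39710, 38408 and 41209 in STMN1+/+ cells. The lowest STMN1-/- signal was just above the highest STMN1+/+ signal. The log2 ratio was 0.29 (SE 0.06, limma adjusted p = 0.0230), and with any 1 array left out it was 0.26 to 0.31 with adjusted p of 0.0676 to 0.0936. With dim probes kept in the fit its adjusted p was 0.0646.

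Dlk1, a transmembrane protein with epidermal growth factor-like repeats that is related to Notch ligands, was higher on each array by a small amount. Its brightest probe, A_51_P135618 at chr12:106981689-106981748, gave 26654, 31498.5, 30734 and 36239.5 in STMN1-/- and 22013, 24164, 25567 and 31161 in STMN1+/+ cells. Across arrays the genotypes overlapped, although STMN1-/- exceeded STMN1+/+ on 4 of 4. The log2 ratio was 0.29 (SE 0.06, limma adjusted p = 0.0262), and probe A_52_P177324 gave 0.23 (SE 0.05, limma adjusted p = 0.0388). With 1 array left out, neither probe passed the threshold (adjusted p 0.0770 to 0.133), and the ratios were 0.22 to 0.31. With dim probes kept in the fit the adjusted p values were 0.0710 and 0.104.

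Plagl1, a zinc finger transcription factor also called Zac1, and Ndn, which encodes the MAGE-family protein necdin, were not called. The brighter Plagl1 probe, A_52_P532456, gave 39343.5, 44220.5, 46114 and 49683.5 in STMN1-/- and 44297, 45009.6, 40809.9 and 47196.5 in STMN1+/+ cells. Its ratio was below 0 on replicates 1 and 2 and above 0 on replicates 3 and 4, with a mean of 0.01 (SE 0.08, 95% interval -0.18 to 0.21), and probe A_51_P432034 averaged -0.06 (interval -0.27 to 0.14). For Ndn, A_52_P451644 gave 25342, 26291, 18434 and 22381 in STMN1-/- and 21559, 20891, 21964 and 24927 in STMN1+/+ cells. The ratio was 0.23 and 0.33 with STMN1-/- RNA in Cy3 and -0.25 and -0.16 with it in Cy5. The mean was 0.04 (SE 0.12, interval -0.27 to 0.35), and the difference between orientations was at least as large as that of 82.5% of probes.

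Peg10, a gene derived from a retrotransposon and required in the placenta, was the only member called lower, and it was dim. Its probe A_52_P377723 at chr6:4712753-4712812 gave 119.7, 48.5, 63.5 and 102 in STMN1-/- cells and 182, 130.1, 99.2 and 193 in STMN1+/+ cells. The STMN1-/- signal was below the STMN1+/+ signal on each array, although the ranges overlapped. In STMN1-/- cells no array had it well above background, and in STMN1+/+ cells 3 of 4 did, so it entered the test only through the STMN1+/+ signals. Its level in STMN1-/- cells is known only as an upper limit. The dim signals themselves set this limit, since each lay above the lowest signal well above background on its array. The mean difference against it is then at least 1.86-fold, the same as the fitted log2 ratio of -0.90 (SE 0.15, 95% interval -1.29 to -0.51, limma adjusted p = 0.0165). That bound takes no account of the spread among arrays or of the choice of normalization. Single arrays gave 1.52 to 2.68 fold. Without replicate 4 the log2 ratio was -0.89 with an adjusted p of 0.0656, and without replicate 2 it was -0.72. When the mean signals were corrected by normexp and normalized by loess instead, it was -0.11 (adjusted p = 0.196).

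The clusters around the members were then described from 62 other imprinted genes, of which 56 were on the array and 50 were tested. Of these, 8 were called higher and 10 lower, beside the 12.3% and 11.6% of all genes, and 32 were not called. With normexp correction 2 were called higher (Igf2r and Dcn) and 3 lower (Cobl, at -0.67, Peg12 and Slc38a4). The 6 others called higher then gave 0.09 for Zim1, 0.20 for Slc22a18, 0.23 for Airn and for Copg2, 0.35 for Trappc9 and 0.38 for Nap1l5. The 7 others called lower gave -0.17 for Sfmbt2, -0.18 for Magel2, -0.22 for Ppp1r9a, -0.25 for Asb4 and -0.33 for Phlda2, Tfpi2 and Gatm. The call of Copg2 was lost whichever of the 4 arrays was left out, those of Peg12, Asb4, Sfmbt2 and Trappc9 when any of 3 arrays was, that of Slc22a18 for 2 arrays and those of Zim1 and Slc38a4 for 1, while the other 10 held.

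In the Dlk1-Meg3 cluster on chromosome 12, the ratio of the other maternally expressed noncoding RNAs was also above 0 on every array with a value. Rian probe A_52_P244 gave 0.70 (SE 0.16, n = 3, the outlier spot on replicate 4 being dropped) and A_52_P102630 gave 0.41 (SE 0.11, n = 4), with limma adjusted p of 0.0501 and 0.0502. Without replicate 4 the dyes were not balanced for A_52_P244, whose single arrays gave 0.28 to 0.95. Mirg gave 0.22 (SE 0.06, limma adjusted p = 0.0506). None of the 3 probes passed the threshold. Rian A_52_P244 did so with outlier spots kept (0.63, adjusted p = 0.0286) and with the stricter filter on dim probes (0.0234). With a dye coefficient its ratio was 0.59, resting on replicate 3 alone for STMN1-/- RNA in Cy5. Leaving out replicate 3 gave 0.90, but every array left then carried STMN1-/- RNA in Cy3, so genotype and dye could not be separated. Mirg passed the threshold with median centring (0.0471), the stricter filter (0.0324) and a dye coefficient (0.0259). By normexp and loess neither passed, at 0.52 for Rian A_52_P244 (adjusted p = 0.0560) and 0.21 for Mirg (adjusted p = 0.104). Dio3, the paternally expressed deiodinase gene at the far end, gave -0.13 (SE 0.06, limma adjusted p = 0.181). Within arrays Dlk1 differed from Meg3 by a mean of -0.20 (range -0.36 to 0.01, exact p = 0.25).

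**Figure D3:**
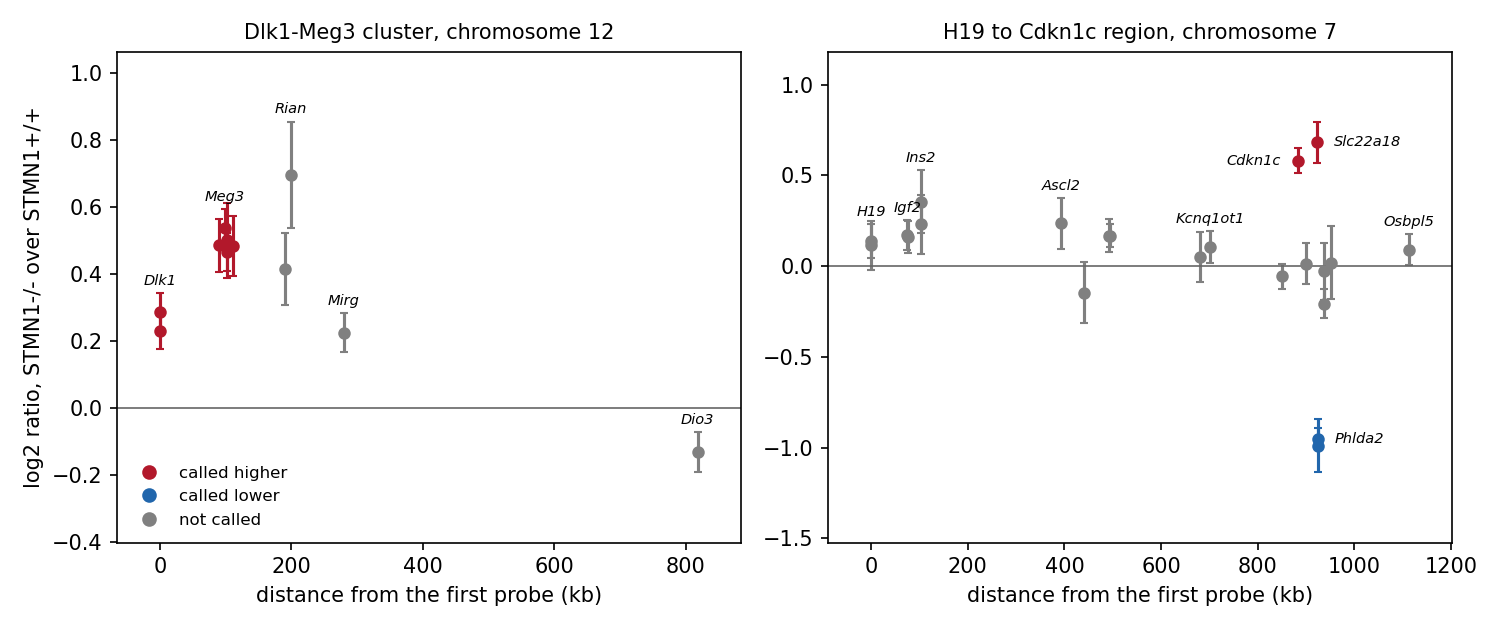
Log2 ratio of the STMN1-/- over the STMN1+/+ signal (vertical axes, mean and SE over the arrays) against distance in kb from the first probe shown (horizontal axes) for each tested probe of the Dlk1-Meg3 cluster on the left and of the region from H19 to Osbpl5 on the right, with some genes named. Meg3 probes lie between 0.46 and 0.54 and Dio3 at -0.13, while Cdkn1c at 0.58 and Phlda2 at -0.95 and -0.99 are near each other on chromosome 7.

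On distal chromosome 7, Igf2, the growth factor gene that shares enhancers with H19, gave 0.17 (SE 0.08, limma adjusted p = 0.206) and differed from the H19 ratio by a mean of 0.03 within arrays (range -0.03 to 0.07, exact p = 0.25). Igf2r, on another chromosome, encodes the receptor that clears this growth factor and was higher by 0.63 (SE 0.08, limma adjusted p = 0.00791), as was Airn, the noncoding RNA of the same locus, by 0.65 (SE 0.06, limma adjusted p = 0.00266). Phlda2, a maternally expressed growth-restraining gene of the Cdkn1c cluster, was lower, with STMN1-/- signals of 346 to 413 and STMN1+/+ signals of 694 to 764. Its log2 ratio was -0.95 (SE 0.06, limma adjusted p = 0.00128), and its second probe gave -0.99. On each array Phlda2 lay below Cdkn1c, by a mean of -1.53 (range -1.65 to -1.41, exact p = 0.125). Slc22a18, which lies next to it, was higher by 0.68 (SE 0.11) with one probe and by 0.01 (SE 0.11, not called) with the other. Kcnq1ot1, the noncoding RNA of that cluster, gave 0.10 (SE 0.09).

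Around Peg10, Sgce, which is transcribed in the opposite direction from the same control region, gave 0.12 (SE 0.05, limma adjusted p = 0.159) and was not called. Tfpi2 (-0.69, SE 0.09), Ppp1r9a (-0.45, SE 0.06) and Asb4 (-0.41, SE 0.07) were called lower there, and Pon2 and Pon3 were not called. Near Ndn, its MAGE-family relative Magel2 was lower (-0.59, SE 0.08) as was Peg12 (-0.39, SE 0.06), while Snrpn, Snurf, Ube3a, Mkrn3 and Atp10a were not called by their brightest probes. A dimmer Ube3a probe, A_52_P625244, was called lower (-0.25, SE 0.06, limma adjusted p = 0.0488), and another, A_52_P120968, was not called (0.01, SE 0.07). Ndn exceeded Magel2 on each array, by a mean of 0.63 (exact p = 0.125). Beside Peg3, Zim1 was higher (0.52, SE 0.08). Beside Mest, Copg2 was higher (0.34, SE 0.08), and beside Grb10, Cobl was lower (-1.45, SE 0.09) while Ddc was not called.

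At other loci, Nap1l5 (1.14, SE 0.07), Dcn (0.99, SE 0.05), which encodes the matrix proteoglycan decorin, and Trappc9 (0.40, SE 0.06) were called higher. Gatm (-1.18, SE 0.07), which makes a precursor of creatine, Sfmbt2 (-0.45, SE 0.08) and the amino acid transporter Slc38a4 (-0.42, SE 0.07) were called lower.

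**Figure D4:**
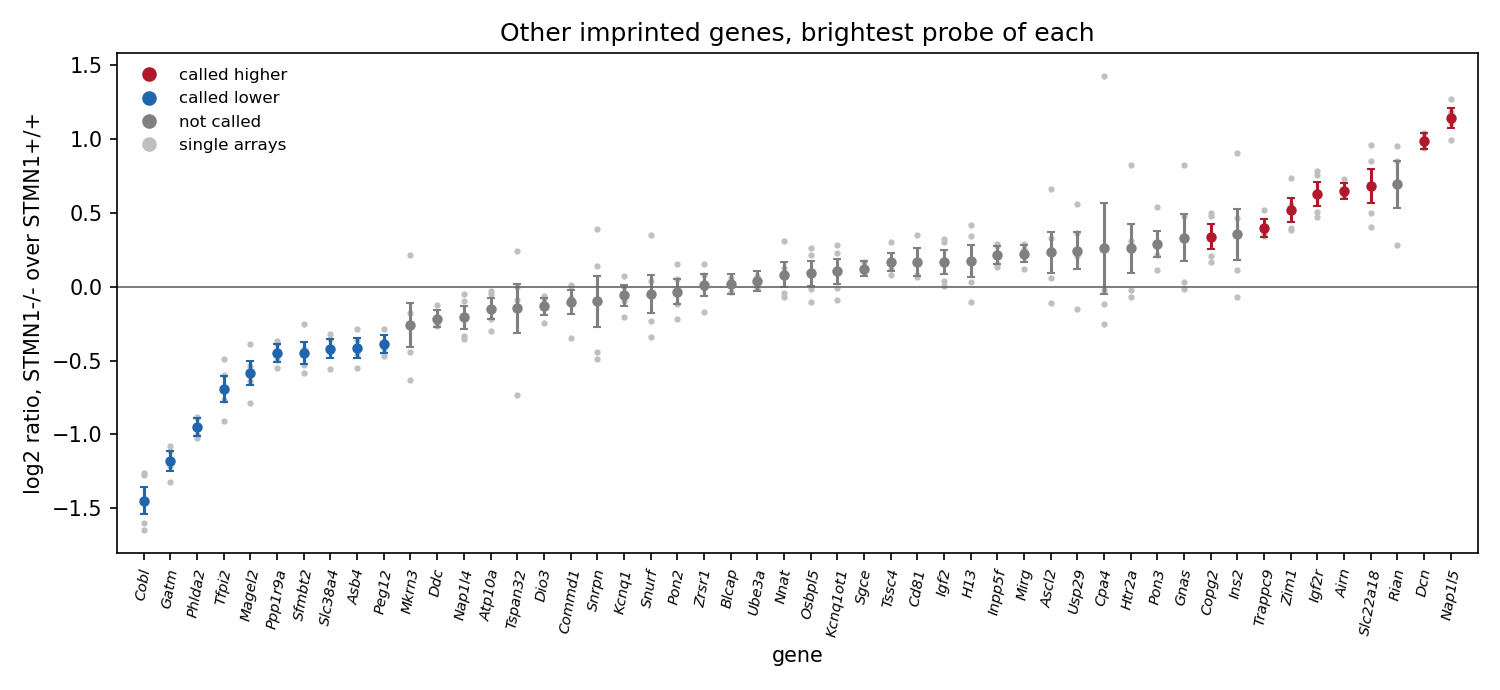
Log2 ratio of the STMN1-/- over the STMN1+/+ signal (vertical axis) of the brightest probe of each of the 50 tested imprinted genes outside the 10 members (horizontal axis, in order of the mean), with small dots for single arrays and points with whiskers for the mean and SE. The ratios run from -1.45 for Cobl to 1.14 for Nap1l5, with 8 called higher and 10 called lower.

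Of 10 genes related in sequence to the members, 9 were tested. Of these, 2 were called higher and 1 lower, beside the 12.3% and 11.6% of all genes. Cdkn1a and Cdkn1b, which encode the cyclin-dependent kinase inhibitors p21 and p27, gave -0.06 and -0.04 and were not called. Of the MAGE-family genes, Maged1 (0.55) and Maged2 (0.69, a call lost with any 1 of the 4 arrays left out) were higher, and Ndnl2 (-0.13) was not called. Dlk2, the relative of Dlk1, was lower (-0.44, SE 0.06). Grb14 (-0.17), Grb7 (-0.38) and Plagl2 (-0.20) were not called, and Plag1 was not well above background.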

How the data were processed

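The intensity values are processed signals that the authors made with Agilent Feature Extraction 9.5.3.1, per the file headers, with background subtraction and dye normalization within each array; the authors' deposited lists of log2 ratios, fold changes and p-values were not used. Samples were grouped by the labels' titles and dyes. Here control and outlier spots were left out, spots of a probe were averaged, and a probe was kept if at least 1 array had it well above background for either genotype. This kept 27759 of 41174 probes, of which 27648 with values on 2 or more arrays were tested.

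Log2 ratios were turned by the dye labels and their means were set against 0 by the moderated two-sided test of limma 3.58.1, with Benjamini-Hochberg adjustment across every tested probe and a threshold of 0.05. The computations ran in R 4.3.3 using data.table (version 1.17.8) and jsonlite 2.0.0. Intervals are at 95%. Probe pairs were compared within arrays with an exact two-sided sign-flip test, which cannot go below 0.125 with 4 arrays. For a bound, the higher of the dim probe's own signal and the lowest signal well above background on that array was used, after Aquantile normalization. The fit was tested on simulated data. Named were the 10 members with every probe, the called genes among 62 other imprinted genes and those sharing a cluster with a member, 10 relatives, Stmn1 and the sex-linked genes. The rule also named the 3 genes most like the member of largest change, which are not given because that member's probe was not well above background in STMN1-/- cells. The members and lists were chosen with earlier results of these data known. Alternatives were normexp (offset 50) with loess, median centring, other filters, outlier spots kept, a dye coefficient, the methods' t-test, other probe rules and leaving out each array. The methods' t-test took the paper's test against 0 but the probe filter used here, without the paper's own filters on flags and coefficient of variance. Plots were made in Python 3.11.15 using numpy 2.4.6, pandas 2.3.3 and matplotlib 3.10.9. The number of arrays limits the precision.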

Additional observations from a re-analysis of the deposited data

How the results depend on the processing

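Of the 10 genes, 5 were called higher with the reported settings and 4 to 5 under normexp, median centring, the stricter filter, outlier spots kept, a dye coefficient, the methods' t-test and the majority of probes. Without the filter on dim probes 3 were, and with 1 array left out 2 to 3. The gene called lower, Peg10, gave a count of 0 under normexp, under the stricter filter, which removes its probe, and under the methods' t-test, and of 0 to 1 with 1 array left out. Among the other imprinted genes, 8 higher became 2 under normexp, 15 with a dye coefficient, 5 by the majority of probes and 4 to 7 with 1 array left out, and 10 lower became 3 under normexp and 6 to 9 with 1 array left out.

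Over all probes, 3098 higher and 3086 lower became 991 and 1148 under normexp, 1970 and 1871 without the filter, 5362 and 5362 with a dye coefficient, 1975 and 1882 by the methods' t-test, and 1460 to 1649 and 1348 to 1537 with 1 array left out. Leaving out 1 array lowers the degrees of freedom and also unbalances the dye swap. The cause of these moves was not tested. Sign changed for uncalled probes only: with 1 array left out, H19 A_52_P571350 ran from -0.0062 to 0.21, Ndn from -0.058 to 0.14 and Plagl1 A_52_P532456 from -0.041 to 0.075, falling below 0 without replicate 1 for H19, replicates 1 or 2 for Ndn and replicates 3 or 4 for Plagl1. Under a dye coefficient Peg3 A_52_P1131620 passed the threshold at an unchanged 0.32 (limma adjusted p = 0.0253). Under normexp, 5 called member probes no longer passed: Meg3 A_51_P109649 and A_52_P196568, Dlk1 A_52_P177324, Peg3 A_52_P235861 and Peg10. The Peg10 probe was not well above background in STMN1-/- cells, which limits its value to a bound.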
